A study of Mus musculus with 2 samples.

Results

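Meis1, Meis2, Meis3, Pbx2, Pbx3, Pbx4, Pknox1 and Pknox2 are mouse genes of the TALE homeobox class, and the Brg1 islands in and around them were examined in medulloblastoma. The 8 genes were taken by name as members of the Meis, Pbx and Pknox families in the RefSeq annotation of mm10, out of 21631 protein-coding genes on the autosomes and X. An island is a stretch of the genome that the authors' caller found enriched for ChIP reads. Islands overlapping a member or lying within 5 kb of it were assigned to it, 7 of the 5727 islands in the deposited list. A further 7 islands lay over 5 kb and up to 100 kb away and are called distal. Other genes of these families are not analysed here.

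The ChIP library came from primary tumour tissue, formed spontaneously in mice carrying CAG-CreER and Rosa26-SmoM2, alleles that the ChIP and input libraries share. SmoM2 is an activated form of Smoothened, the Hedgehog signal transducer. CAG is a broadly active promoter, so the promoter does not by itself limit SmoM2 to granule neuron progenitors. The sources used here do not give the number or age of the animals. Chromatin was precipitated with the J1 antibody, labelled as recognising both Brg1 and Brm, the alternative ATPases of the BAF chromatin remodelling complex, so an island can hold either protein. The study has 1 library of each kind, of which the input was not used here. With no replicate there is no error between animals and no test; intervals on read counts are exact Poisson 95% intervals that cover counting error only.

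TALE homeodomain proteins carry a short loop extension within the homeodomain. Pbx proteins bind DNA together with Hox and other homeodomain factors, and Meis and Pknox proteins are their partners, which help hold Pbx in the nucleus. In the mouse cerebellum, Meis1 is made in granule neuron progenitors, from which tumours of the Shh type grow, and acts there on Pax6 expression and on the turnover of Atoh1.

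Brg1 islands were found at Meis1 and Pbx3 and at none of the other 6 members. Meis1 had 3 islands in the gene or within 5 kb and Pbx3 had 4, while Meis2, Meis3, Pbx2, Pbx4, Pknox1 and Pknox2 had 0. Thus 2 of the 8 members had an island, against 16.9% of all protein-coding genes. Long genes meet the rule more easily. Of the 4 members of 100 kb or more (Meis1, Meis2, Pbx3 and Pknox2) 2 had an island, against 39.9% of protein-coding genes of that length, and of the 4 shorter members 0 did, against 14.0% of protein-coding genes under 100 kb. The share of members with an island is thus near that of genes of their length, and 8 genes allow no finer reading. The absence of an island says only that no region there passed the authors' caller, not that Brg1 was absent.

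**Figure D1:**
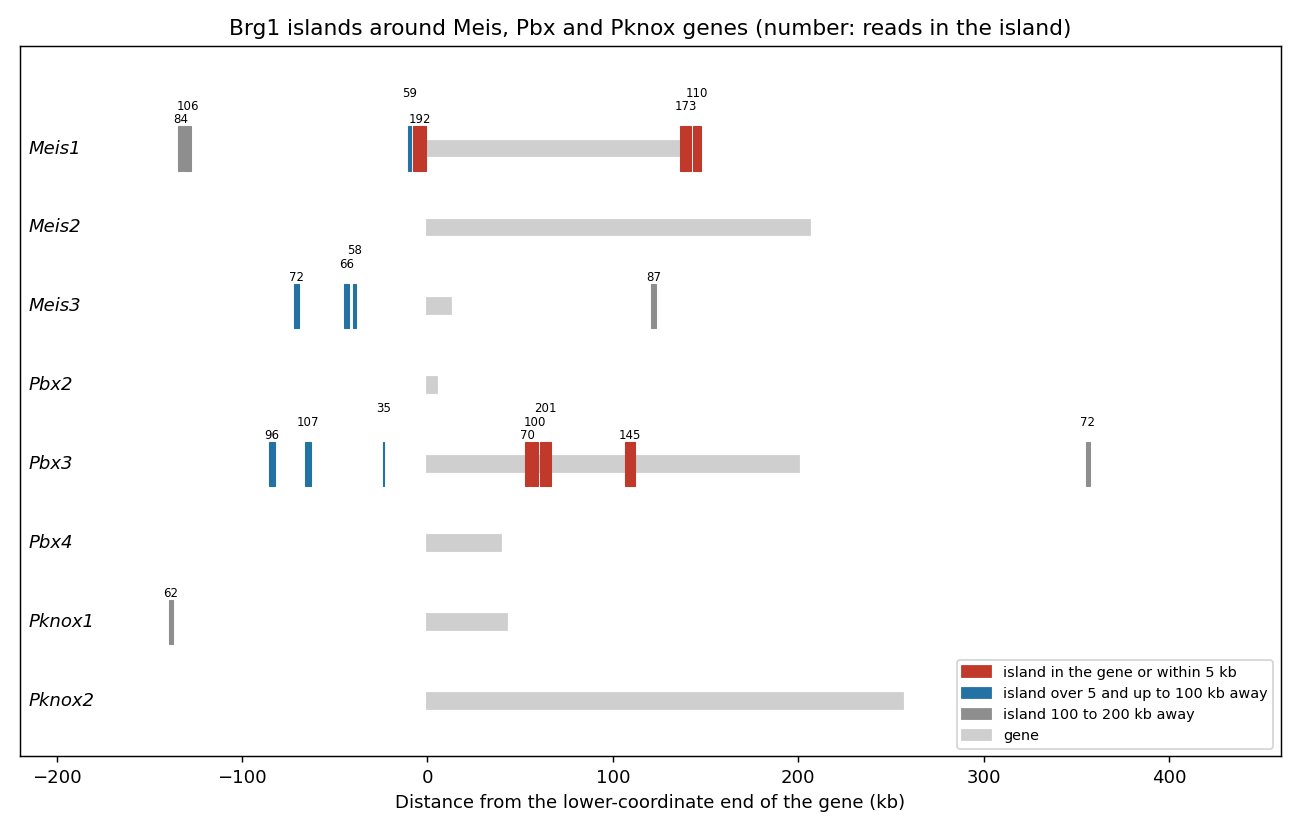
Islands around each of the 8 genes, placed by distance in kb from the gene's lower-coordinate end. Grey bars are genes, coloured boxes are islands drawn at their true width, and the number above each is its read count. Meis1 and Pbx3 carry the 7 islands in or within 5 kb of a member, and Meis2, Pbx2, Pbx4 and Pknox2 have none within 200 kb.

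Meis1 lies on chromosome 11 (18880428 to 19019651, minus strand, mm10), and its islands sat at both ends of the gene rather than in its interior. The promoter entry of RefSeq places a transcription start at 19018969. An island of 173 reads (95% interval 148 to 201) ran from 19016798 to 19022597 and covered that start, reaching 3.63 kb upstream and 2.17 kb downstream of it. The same island overlapped the plus-strand lncRNA gene Gm16141 (18989652 to 19018330), but not the start of that gene. A second upstream island of 110 reads (90.4 to 133) ran from 19023398 to 19027797, beginning 4429 bp upstream of the start and 800 bp beyond the edge of the first. Of the 5 members with a promoter entry, Meis1 was the one with an island within 1 kb of the start, against 9.53% of protein-coding genes with an entry.

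The Meis1 island with the most reads, 192 (166 to 221), lay at the other end, from 18872798 to 18879397, 1031 bp beyond the 3' end of the gene. It covered 3 RefSeq starts of the lncRNA gene 8430419K02Rik, at 18877602, 18877603 and 18877610, which is transcribed from the same strand as Meis1. A distal island of 59 reads (44.9 to 76.1) followed at 18870198 to 18871797, inside that lncRNA gene and 8.63 kb from Meis1. The rule's limit of 5 kb therefore fell between the 110-read island at 3.75 kb and the 59-read island at 8.63 kb. The nearest other protein-coding genes, Etaa1 and Spred2, lay 897 to 919 kb from these 4 islands.

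The bases before these starts are shown because they are the DNA under the Meis1 islands that can be read, beside the same stretch of 2 members without an island. Each is the 250 bases upstream of a start in RefSeq (GRCm38.p6), 5′ to 3′ on the gene's own strand, with CpG dinucleotides in capitals. The positions are chr11:19018970-19019219 (minus) for Meis1, chr2:116064620-116064869 (minus) for Meis2, chr17:34592009-34592258 (plus) for Pbx2 and chr11:18877611-18877860 (minus) for 8430419K02Rik. A last one, chr2:34107736-34107985 (minus), precedes the start of the lncRNA gene C230014O12Rik in the Pbx3 locus.
Meis1: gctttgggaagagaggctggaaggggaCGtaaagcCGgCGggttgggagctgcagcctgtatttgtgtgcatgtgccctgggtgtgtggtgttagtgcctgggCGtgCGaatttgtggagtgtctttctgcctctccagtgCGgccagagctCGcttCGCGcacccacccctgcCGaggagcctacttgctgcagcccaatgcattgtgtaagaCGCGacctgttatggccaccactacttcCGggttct
Meis2: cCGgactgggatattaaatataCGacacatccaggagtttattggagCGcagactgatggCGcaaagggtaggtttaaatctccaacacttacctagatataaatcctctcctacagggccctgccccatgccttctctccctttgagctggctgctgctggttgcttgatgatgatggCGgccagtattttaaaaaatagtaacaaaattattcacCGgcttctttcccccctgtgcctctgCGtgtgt
Pbx2: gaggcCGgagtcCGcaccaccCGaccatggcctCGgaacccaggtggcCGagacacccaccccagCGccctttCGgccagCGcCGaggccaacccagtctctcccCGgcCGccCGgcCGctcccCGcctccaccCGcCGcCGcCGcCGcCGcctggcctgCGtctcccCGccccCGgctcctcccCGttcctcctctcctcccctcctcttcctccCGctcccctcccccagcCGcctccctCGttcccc
8430419K02Rik: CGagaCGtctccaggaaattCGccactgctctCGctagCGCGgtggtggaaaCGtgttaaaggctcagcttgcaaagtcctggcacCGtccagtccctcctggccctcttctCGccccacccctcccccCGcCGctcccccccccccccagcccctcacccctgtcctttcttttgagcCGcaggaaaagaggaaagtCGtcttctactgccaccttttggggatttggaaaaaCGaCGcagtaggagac
C230014O12Rik: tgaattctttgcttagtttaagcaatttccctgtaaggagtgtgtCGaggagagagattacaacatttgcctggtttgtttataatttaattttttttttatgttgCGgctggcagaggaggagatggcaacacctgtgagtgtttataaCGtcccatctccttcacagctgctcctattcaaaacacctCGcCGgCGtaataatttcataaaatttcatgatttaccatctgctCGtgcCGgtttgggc

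The Meis1 stretch, under the 173-read island, held 13 CpG and 59.6% G and C. That of 8430419K02Rik, under the 192-read island, held 15 CpG and 60.8% G and C. The stretches of the 4 members without an island varied widely: Meis2 had 7 CpG and 47.6% G and C, Meis3 12 and 63.6%, Pbx4 12 and 55.6%, and Pbx2 27 and 77.6%. The Pbx2 stretch thus had the most CpG of the 5 members and no island, and C230014O12Rik had 8 CpG and 41.2% with one. Over all 2300 promoter entries overlapped by an island the medians were 19 CpG and 62.8%, against 5 CpG and 51.6% over the entries without, counted in the same 250 upstream bases. Base composition differs between overlapped and other entries across the whole list, and the 4 members without an island spanned the Meis1 values on both measures. The gene extents of Meis1 and Meis2 reach 682 and 2918 bp beyond these starts, so both stretches lie inside the annotated genes. The Meis3 stretch also lies inside its gene, and the Pbx4 stretch partly so. A start further upstream is not in these entries, so these stretches may not be the main promoters.

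The promoter entries of the 5 members (250 bases before to 50 after the start) were searched on both strands for the sites of TALE factors and of granule lineage and Hedgehog factors. None of the 5 held the Meis and Pknox core site TGACAG, which 19.2% of all 32851 entries held. None held the Pbx-Meis composite TGATTGAC (0.770% of entries) or the Pbx-Hox composite TGATNNAT (8.85%). The E-boxes CAGCTG (16.3%) and CAGATG (17.2%) and the Gli site GACCACCCA (0.253%) were not in them either. These letters are only absent from these windows; the longer composite site can overlap the core site where an AG follows it.

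Pbx3, a partner of Hox factors that mice need for breathing control after birth, lies on chromosome 2 (34171457 to 34372045, mm10). All 4 of its islands lay inside the gene, at least 52.4 kb from the lower-coordinate end and 88.8 kb from the higher one. Strand was not used for Pbx3 and no promoter entry matched it. Which end is the start is therefore not stated, and starts of Pbx3 inside the gene were not checked. Neither end had an island within 1 kb. This differs from Meis1, where the islands lay at the ends.

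Of the Pbx3 islands, 3 formed a group. They held 70 reads (54.6 to 88.4; 34223881 to 34226680), 100 reads (81.4 to 122; 34227481 to 34231080) and 201 reads (174 to 231; 34232081 to 34238280). The gaps between them were 800 and 1000 bp, where the smallest gap between any islands of the list was 800 bp. The fourth, of 145 reads (122 to 171; 34277881 to 34283280), lay 39.6 kb beyond the group. The 201-read island had more reads than the 70-read and 100-read islands beyond their intervals, and was also wider.

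Joining islands 1000 bp or less apart, a step chosen after seeing the data, turned the 3 into a region of 14.4 kb with 371 reads (334 to 411). The limit of 1000 bp equals the wider gap of this group, and a smaller limit would not have joined all 3. The ranks and counts that follow depend on it. The joined Pbx3 region ranked 12th by width and 23rd by reads among 5628 joined regions. Of these regions 97 joined at least 2 islands and 2 joined at least 3, the Pbx3 region and one on chromosome 9 (3000001 to 3038400). The latter held 6130 reads, and its 31.9 reads per 200 bp stood against 5.15 at Pbx3. No region was removed before ranking, and whether the chromosome 9 signal is an artefact of mapping was not tested. At Meis1 every island had a neighbour 1000 bp or less away: the start region became 11 kb with 283 reads (251 to 318), and the 3' region, which then took in the 59-read distal island, became 9.20 kb with 251 reads (221 to 284).

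The number of islands placed Meis1 and Pbx3 among few genes, though less so among long ones. Both had 3 or more in the gene or within 5 kb, against 1.29% of all protein-coding genes and 8.45% of those of 100 kb or more. Pbx3's 4 were matched or exceeded by 0.555% of all protein-coding genes and 3.96% of long ones. These counts depend on the splitting of islands: with those 1000 bp or less apart joined, neither gene had 3 or more. The shares over all genes were not recounted that way. Per 100 kb of gene and window, Meis1 had 2.01 islands and Pbx3 had 1.90. The paralogue Meis2, at 206 kb longer than both, had 0, and so did Pknox2 at 256 kb.

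**Figure D2:**
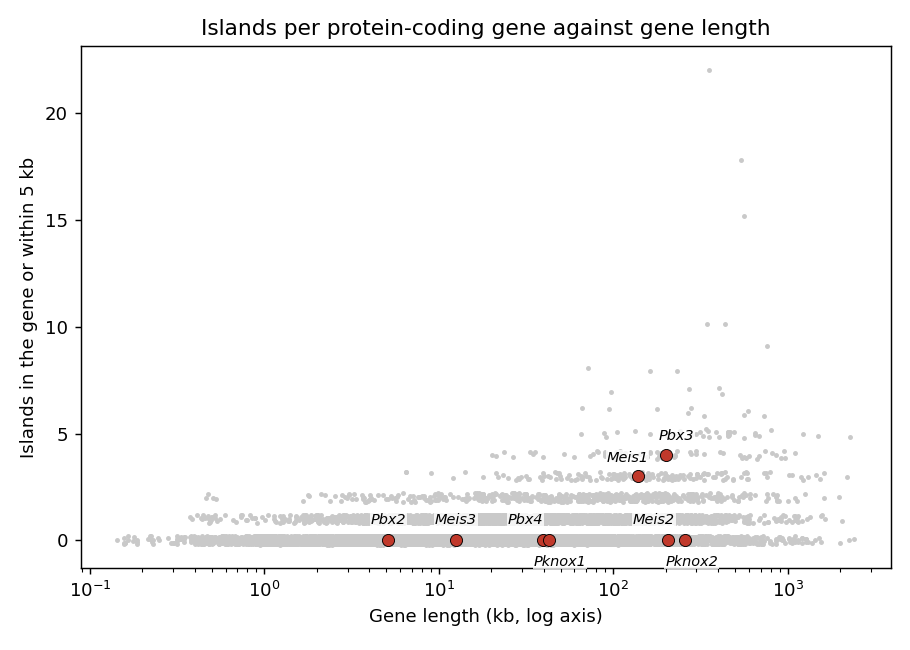
Number of islands in the gene or within 5 kb against gene length in kb (log axis) for all protein-coding genes (grey, spread vertically for legibility) and the 8 members (red). Meis1 with 3 and Pbx3 with 4 islands stand above Meis2 and Pknox2, which are longer and have 0.

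The islands of Meis1 and Pbx3 were wide and held many reads. Their median was 145 reads (range 70 to 201) over a median width of 5400 bp (2800 to 6600), against 68 reads and 2200 bp over all islands. Of the 7, 6 were at or above the upper quartile of 86 reads, and 4 at or above the 90th percentile of 112 reads. Likewise 4 of the 7 were 5 kb or wider, against 202 islands (3.53%) of the list. The 201-read island of Pbx3 ranked 68th by reads, the 192-read and 173-read islands of Meis1 82nd and 108th, and the 145-read island of Pbx3 210th.

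Their read density was not high. Reads per 200 bp had a median of 5.56 (range 5 to 6.48) over the 7 islands, against 6.27 over the list, and 6 of the 7 were below that. Since reads depend on width, each was also set beside islands of its own width. The 192-read island of Meis1 stood against a median of 193 reads in the 11 islands of 6600 bp, and its 173-read island against 167 in the 24 of 5800 bp. For Pbx3, 201 reads stood against 187 in the 11 islands of 6200 bp, and 145 against 149.5 in the 14 of 5400 bp. The other 3 were below the median of their width, with 110 reads at Meis1 against 121, and 70 and 100 reads at Pbx3 against 80 and 101. The high counts thus went with width, each of the 7 medians lying inside the island's own counting interval.

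**Figure D3:**
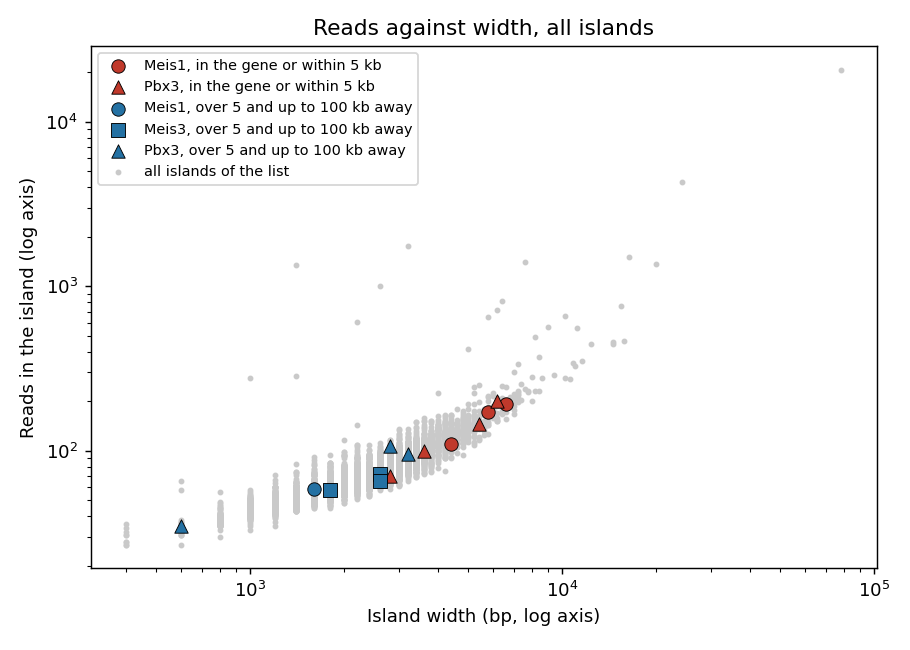
Reads in the island against island width in bp (log axes) for all 5727 islands (grey) and those of Meis1 (circles), Meis3 (squares) and Pbx3 (triangles), in red within 5 kb of the gene and in blue up to 100 kb away. The red points span 70 to 201 reads and follow the trend of the list, in its upper part.

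Distal islands were found for 3 of the 8 members, Meis1, Pbx3 and Meis3, against 37.9% of all protein-coding genes. Pbx3 had 3, all below its lower-coordinate end. One of 107 reads (87.7 to 129; 34105681 to 34108480), 63.0 kb from the gene, covered the start of the lncRNA gene C230014O12Rik at 34107735. Another, of 96 reads (77.8 to 117; 34086081 to 34089280), lay inside the same lncRNA gene, 82.2 kb from Pbx3. The third held 35 reads (24.4 to 48.7) over 600 bp at 23.6 kb, and 0.594% of islands had fewer reads. Among the 357 islands as wide as the 107-read one, 96.9% had fewer reads.

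Meis3, whose product patterns the hindbrain in frogs, had 3 distal islands on its upstream side, but each lay inside another gene. Those of 66 reads (51.0 to 84.0) and 58 reads (44.04 to 74.98), at 42.2 and 38.4 kb, were inside Slc8a2, a sodium-calcium exchanger gene, and the first covered the Slc8a2 start at 16129826. That of 72 reads (56.3 to 90.7), at 69.4 kb, was inside Napa, a gene of vesicle fusion. Of the 7 distal islands, the nearest protein-coding gene was the member in 4, those of Meis1 and Pbx3. None of the 3 had more reads than the median of the islands of its width: 72 and 66 reads stood against 76, and 58 against 58.

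The other 5 members had no island within 100 kb, as had 54.4% of all protein-coding genes. The nearest to Pknox1, which encodes Prep1, a Pbx partner that mouse embryos need, was one of 62 reads inside Pde9a at 137 kb. For Pknox2, which encodes Prep2, it lay inside Ccdc15 at 200.1 kb, with 67 reads. For Pbx4, known from the testis, it lay at 232 kb with 82 reads, and for Pbx2 at 353 kb with 78 reads, 3.17 kb from Hspa1b. Meis2, a regulator of forebrain and neural crest development, was farthest: its nearest island, of 74 reads, lay 907 kb away, and 87.4% of protein-coding genes had a closer one. The median distance was 169 kb over the 8 members and 125 kb over all protein-coding genes.

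**Figure D4:**
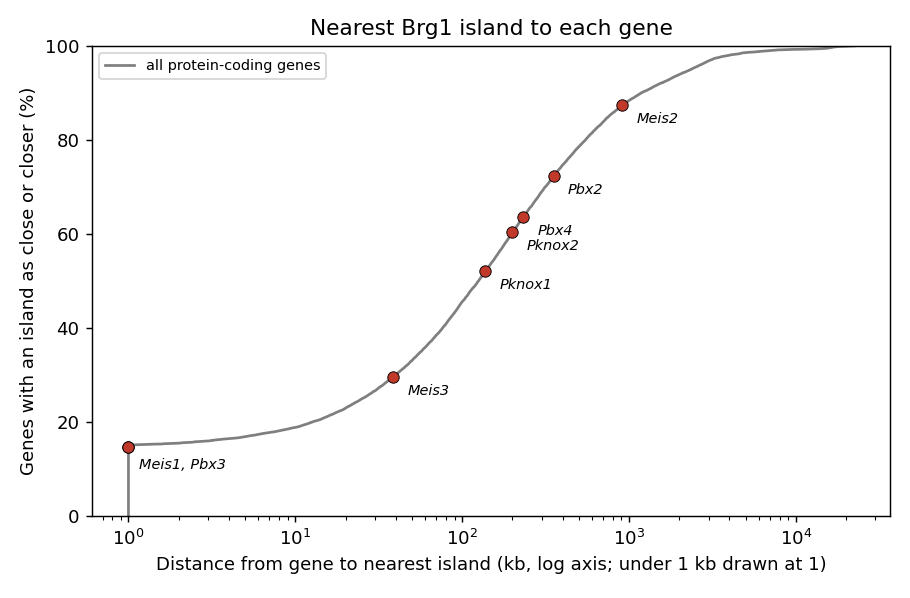
Share of protein-coding genes (%) with an island at a given distance in kb (log axis) or closer; the grey line is all protein-coding genes and red points are the 8 members. Meis1 and Pbx3 overlap an island, Meis3 is at 38.4 kb, and the other 5 lie between 137 and 907 kb.

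Within the rest of the TALE class, 3 of 9 genes (Irx1 to Irx6, Tgif1, Tgif2 and Mkx) had an island in the gene or within 5 kb, beside 16.9% of all protein-coding genes. Tgif1, a repressor that tempers TGF-beta and retinoid responses, had one of 162 reads (138 to 189) over 5000 bp. Its paralogue Tgif2 had one of 94 reads (76.0 to 115), and Irx5, an Iroquois gene, one of 61 reads (46.7 to 78.4) lying 895 bp outside the gene. None of 39 Hox genes, whose products pair with Pbx and Meis, had one, beside the same 16.9%. Hox genes lie in clusters, so the 39 are not separate cases. A distal island lay 48.9 to 91.5 kb from 4 of them (Hoxc4, Hoxc5, Hoxc6 and Hoxc8, neighbours in the same cluster), beside 37.9% of all protein-coding genes.

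Of 13 other genes described as partners or targets of Meis and Pbx, 3 (23.1%) had an island in the gene or within 5 kb, near the 16.9% of all protein-coding genes. Pax6, the target of Meis1 in granule progenitors, had one of 132 reads (110 to 157) and Atoh1 had islands of 89 and 76 reads. En2, a midbrain-hindbrain homeobox gene, had one of 53 reads. The other 10 (Pbxip1, En1, Ptf1a, Zfp703, Klf4, Hmx1, Crebbp, Hdac1, Tle4 and Ncor1) had 0.

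The tissue label was set beside marker genes. Their lists were chosen with earlier results of these data known, so the counts are no independent check of the label. All 10 markers of granule progenitors and Shh-type medulloblastoma (Atoh1, Barhl1, Zic1, Zic2, Pax6, Gli1, Ptch1, Mycn, Ccnd1 and Neurod1) had an island in the gene or within 5 kb. Among markers of other cells of the tumour, 1 of 5 oligodendrocyte genes (Mbp), 1 of 4 astrocyte genes (Gfap), 0 of 4 microglia genes and 1 of 4 endothelial genes (Cdh5) did. Over all protein-coding genes the share was 16.9%, and the counts for these other cells, from 4 or 5 genes each, are too small to be told from it. Islands are not expression, and the share of each cell type in the tumours was not measured here. The 5727 islands held 472238 reads in all; the depth of the library is unknown.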

How the data were processed

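The deposited list gives the chromosome, start and end of each island of the ChIP library and a whole number, taken as the authors' count of reads in it, since it rises with island width. The counts are not scaled for depth. Tools named in the submitters' processing notes are SICER 1.1 (an island caller), Bowtie 0.12.7 and Picard 1.127, with mm10 and mm9 as builds. Caller settings, and whether the input served as control, are not stated. Coordinates were read as mm10, printed 1-based: 2300 RefSeq promoter entries overlapped an island as deposited and 322 with the list moved by 100 kb.

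Islands were assigned to RefSeq genes (GRCm38.p6) by any overlap with the gene or its 5 kb flanks, using Python 3.11.15, pandas 2.3.3 and scipy 1.17.1. An island can be assigned to several genes. Starts and strand came from RefSeq promoter entries, which matched 5 of the 8 members; Pbx3, Pknox1 and Pknox2 were not matched, and both gene ends stood in for their starts. The assignment was tested on simulated islands. No significance test was made, as there was 1 library. The planned protein comparison was not run. All 8 members and all their islands are named, with the listed genes that have an island, except for an item that is not reported here. Members and lists were chosen with earlier results of these data known. Alternatives changed the read threshold, windows, overlap rule, gene assignment and minimum width.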

Additional observations from a re-analysis of the deposited data

How the results depend on the processing

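Of 46 alternative values, 39 stayed close to the reported one, counts being judged by a change of at most 1.5 times and medians by the counting interval of the median island. Among the 39 are the 0 counts of the 6 members without an island. A higher read threshold cannot raise these, nor can a 10 kb window, as their nearest islands lie 38.4 kb or more away. The count of 2 members with an island was the same under all 7 alternatives tried, and the start count of 1 under all 4. Neither could have changed, given where the islands lie, so these alternatives are no check on them. Meis1 and Pbx3 overlap islands of 173 and 201 reads, 5800 and 6200 bp wide, beyond every threshold tried. The 173-read island covers both the Meis1 start and the gene end beside it, and its midpoint lies within 1 kb of the start. The 7 islands in or near members became 4 when islands 1000 bp or less apart were joined, by construction. The 7 distal islands depended on the definition: 4 within 50 kb, 12 within 200 kb, 4 where the member had to be the nearest protein-coding gene and 3 at or above the median read count. The median of 145 reads was 98 with distal islands added and 267 with joined islands, again by construction. No paired analysis was possible because there is 1 ChIP library. Depth limits what the list can show: no island does not mean no Brg1, and how many weaker regions were missed is unknown.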

Other observations

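Further islands lay 100 to 200 kb from members. Meis1 had 2 on its 3' side, of 84 reads (95% Poisson interval 67.0 to 104) and 106 reads (86.8 to 128), 132 and 127 kb from the gene and 800 bp apart. Both overlapped the lncRNA gene Gm31674, and the 84-read island covered its start at 18748080. Their nearest protein-coding gene was still Meis1. Counted with these, 3 lncRNA genes had a RefSeq start under an island of the Meis1 or Pbx3 locus: 8430419K02Rik, Gm31674 and C230014O12Rik. Gm16141, overlapped by the 173-read island, and Gm28401, 2500 bp from the 106-read island, had no start under one. Over the whole annotation, 2300 of 32851 promoter entries overlapped an island. The share for lncRNA starts alone, and the number of lncRNA genes in these loci, were not counted, so the 3 cannot be read as an excess. The 3 lncRNA genes were chosen after their positions were seen, and whether they are transcribed in the tumours is not measured by these data.

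Pbx3 had 1 such island, of 72 reads (56.3 to 90.7), inside Mapkap1 at 154 kb, and Meis3 had 1 of 87 reads (69.7 to 107) at 108 kb, 7.85 kb from Ccdc9. The island nearest to Pknox1 also falls in this range.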
